A study of Mus musculus with 6 samples.

Results

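Fibroblast growth factors (FGFs) are secreted or released proteins that bind tyrosine kinase receptors on the cell surface, with heparan sulfate chains as a required partner. Bound receptors pair, phosphorylate the docking protein Frs2 and start the Ras and MAP kinase cascade, which in turn induces its own inhibitors of the Sprouty and Dusp families. In the kidney, FGF signals from mesenchyme are known for their part in branching of the collecting system during development, and in adult tissue for effects on fibroblasts, endothelium and injured tubules. Described here are 9 genes of this family, taken by gene symbol, with earlier results of these data already known. They are the 5 ligands Fgf1, Fgf2, Fgf7, Fgf10 and Fgf18 and the 4 receptors Fgfr1, Fgfr2, Fgfr3 and Fgfr4. All 9 were found among the 31815 gene rows of the table, and all 9 passed the filter on low counts, which kept 15462 genes.

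RNA was sequenced from 3 libraries of tdT+GFP+ cells and 3 libraries of tdT-GFP+ cells sorted from mouse kidney. All 6 libraries came from male mice aged 9 to 12 weeks of the genotype Axin2CreERT2/+:R26RtdT/+:Acta2-GFP after bilateral ischemia reperfusion injury, with tamoxifen on days 2 and 4 and sorting on day 6. In these mice the Axin2 promoter drives a tamoxifen-dependent Cre that switches on tdTomato permanently, so that tdT marks cells with Axin2 promoter activity around the tamoxifen doses. Acta2-GFP marks cells in which the smooth muscle actin promoter is active, and both sorts carry it. Kidneys 1, 2 and 3 each gave 1 library of either sort, and neither uninjured kidneys nor GFP-negative cells are among these libraries. The comparison therefore asks how the FGF genes differ between Acta2-GFP cells with and without the tdT mark. It does not show that cells without tdT had not activated Axin2 after injury.

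Library totals ran from 26919514 to 33029933 estimated counts in tdT+GFP+ cells and from 25697348 to 31337198 in tdT-GFP+ cells. At this depth 3 counts correspond to 0.0915 to 0.114 CPM (counts per 1e6 counts of the library). Both sorts had the RNA of fibroblasts and myofibroblasts: 9 marker genes such as Col1a1, Col3a1 and Pdgfrb summed to 43890 to 49050 CPM across tdT+GFP+ libraries, against 33610 to 50150 CPM across tdT-GFP+ libraries. Col1a1 and Col3a1 alone averaged 20580 and 18890 CPM across tdT+GFP+ libraries, so this sum says little of the lower markers. Over all libraries Lum ran from 18.2 to 130 CPM and Dcn from 403 to 869 CPM. Acta2 itself, whose promoter drives the GFP, was at 1416 to 1747 CPM in tdT+GFP+ libraries and 943 to 1588 CPM in tdT-GFP+ libraries. Markers of other cell types were present too. A list of 12 endothelial markers summed to 695 to 1253 CPM across tdT+GFP+ libraries, against 1454 to 2995 CPM across tdT-GFP+ libraries, and each of the 12 had a negative log2 fold change. A list of 8 macrophage markers summed to 420 to 1518 CPM across tdT+GFP+ libraries, against 303 to 923 CPM across tdT-GFP+ libraries. None of these markers was at 0 in any library. In bulk RNA of this kind, fewer cells of a type and less RNA per cell cannot be told apart.

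Levels of different genes were compared per length, as TPM (counts per base of exon, scaled to a fixed sum in each library), computed on the union of each gene's exons. Fgfr1, the main FGF receptor of mesenchymal cells, was the most abundant of the 9 in every library. It stood at 87.2 ± 9.06 TPM across tdT+GFP+ libraries, against 87.5 ± 3.83 TPM across tdT-GFP+ libraries (SD, n = 3 each), and its lowest library, at 77.3 TPM, lay above the highest Fgf2 library, at 49.8 TPM. Fgf2, a ligand without a classical signal peptide that is stored on heparan sulfate in the matrix, came next with a mean of 37.0 TPM over the 6 libraries. Fgf1, which likewise lacks a signal peptide and can bind all FGF receptors, followed with 16.4 TPM.

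Below these came Fgfr3 with a mean of 11.0 TPM, Fgfr4 with 8.18 TPM and Fgfr2 with 5.12 TPM. The 3 remaining ligands were the lowest, with means of 4.15 TPM for Fgf18, 3.67 TPM for Fgf7 and 3.55 TPM for Fgf10. Apart from Fgfr1 and Fgf2, every pair of neighbours in this order had overlapping ranges over the 6 libraries. Within single libraries, Fgf2 was above Fgf1 in 5 of 6 and Fgf1 above Fgfr3 in 5 of 6. Fgf7 was above Fgf10 in 3 of 6, so that the order of this pair is not set by these data. When the length of the longest transcript was used instead, Fgfr2 and Fgfr4 exchanged places and the other 7 genes kept theirs.

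**Figure D1:**
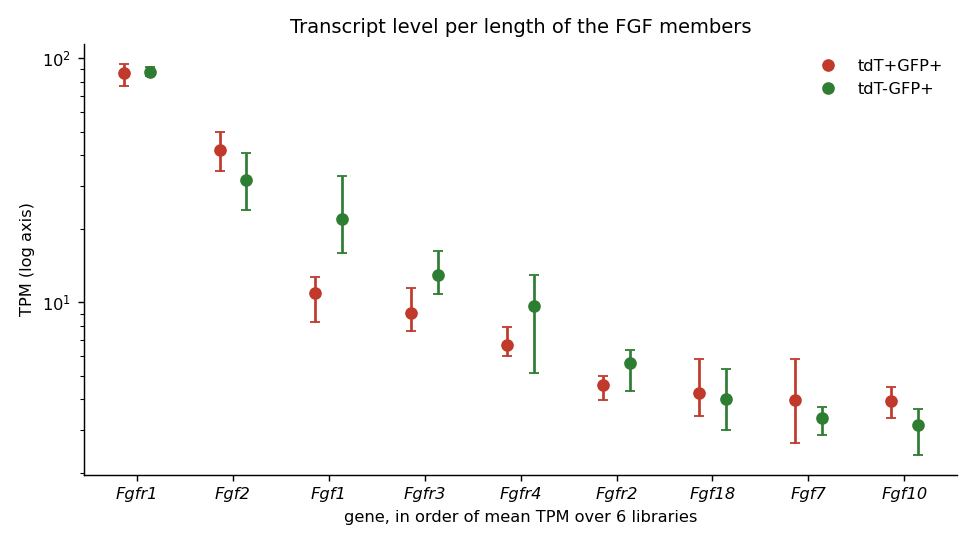
Mean level per length (TPM, log axis) of the 9 FGF ligands and receptors across the 3 tdT+GFP+ and across the 3 tdT-GFP+ libraries, with genes ordered by their mean over the 6 libraries. Bars run from the lowest to the highest library of each sort. Fgfr1 stands apart at 77.3 TPM or more in every library, and the ranges of all other neighbouring genes overlap.

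Fgfr1 made up most of the receptor RNA in both sorts. Its part of the summed TPM of the 4 receptors was 82.4%, 84.3% and 76.0% in tdT+GFP+ kidneys 1, 2 and 3, against 81.9%, 70.7% and 74.7% in the tdT-GFP+ cells of the same kidneys. These shares overlap between the sorts. Fgf2 held the largest part of the 5 ligands in 5 of 6 libraries, with 68.9%, 63.2% and 61.9% of their summed TPM in tdT+GFP+ cells and 58.3%, 48.5% and 41.7% in tdT-GFP+ cells. All 3 tdT+GFP+ shares of Fgf2 were above all 3 tdT-GFP+ shares, and in tdT-GFP+ kidney 3 Fgf1 had a higher TPM than Fgf2. The TPM of Fgf2 itself overlapped, with a lowest tdT+GFP+ library of 34.5 TPM and a highest tdT-GFP+ library of 40.8 TPM. These shares also depend on Fgf1, which is in the same sum. It was at most 12.7 TPM in tdT+GFP+ libraries and at least 15.9 TPM in tdT-GFP+ libraries.

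Neither the ligands nor the receptors passed the test between the sorts. edgeR's quasi-likelihood test with Benjamini-Hochberg adjustment over all genes called 0 of the 9 members at an adjusted p under 0.05. The same fit called 0 of 15462 genes, a background of 0.0%, and the smallest adjusted p of any gene was 0.388. At an unadjusted p under 0.05 it called 1 of the 9 members, Fgf1, where 10.7% of all genes passed. Groups that did not overlap were also seen for 1 of 9 members, again Fgf1, against 15.8% of all genes. limma-voom called 0 of the 9 members as well, and DESeq2 called 0 of the 9 and 1.93% of all genes at an adjusted p under 0.05. At 1 of 9 by either count, the members are near the background.

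**Figure D2:**
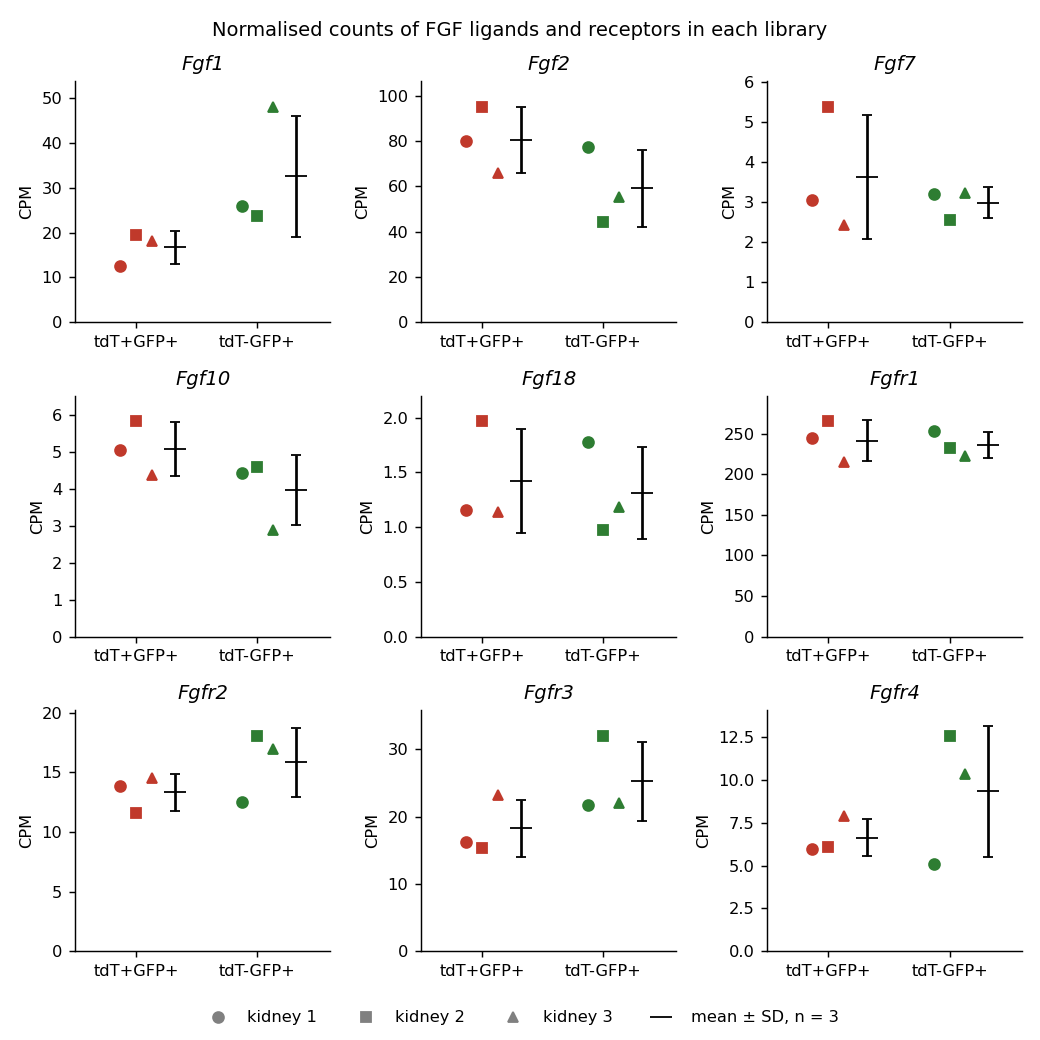
Normalised counts (CPM, each panel with its own linear axis from 0) of the 5 FGF ligands and 4 FGF receptors in each library, with tdT+GFP+ cells on the left, tdT-GFP+ cells on the right and a symbol for each kidney. Bars give mean ± SD (n = 3 each); Fgf1 is the 1 gene of the 9 whose groups do not overlap.

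Fgf1 (ENSMUSG00000036585.16, GRCm38 chromosome 18, bases 38838673 to 38929472, minus strand) had the largest fold change of the 9. It was measured at 12.6, 19.5 and 18.1 CPM in tdT+GFP+ kidneys 1, 2 and 3, against 25.8, 23.7 and 48.1 CPM in tdT-GFP+ kidneys 1, 2 and 3. Every tdT+GFP+ library was below every tdT-GFP+ library, and the tdT-GFP+ library of kidney 3 was far above the other two. The means were 16.7 ± 3.64 CPM across tdT+GFP+ libraries, against 32.5 ± 13.5 CPM across tdT-GFP+ libraries (SD, n = 3 each). This gave a log2 fold change of -0.96 (SE 0.31, 95% interval from -1.70 to -0.22), with an unadjusted p of 0.0190 and an adjusted p of 0.438 in edgeR. The adjusted p of Fgf1 was 0.0896 in DESeq2, and 0.0551 in DESeq2 with the kidney as a replicate block. Over the alternative settings the log2 fold change ranged from -1.28 to -0.57. Without the tdT-GFP+ library of kidney 3 it was -0.57 with an adjusted p of 0.790 in edgeR, and without both libraries of kidney 3 it was -0.63.

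Marker sums beyond the fibroblast list differed between the same libraries. The endothelial sum was higher in every tdT-GFP+ library than in every tdT+GFP+ library, as Fgf1 was. So was the sum of 6 mural cell markers such as Rgs5 and Notch3, at 641 to 874 CPM in tdT+GFP+ libraries and 933 to 1725 CPM in tdT-GFP+ libraries. A list of 8 proximal tubule markers summed to 316, 560 and 153 CPM in tdT+GFP+ kidneys 1, 2 and 3, against 250, 195 and 600 CPM in tdT-GFP+ kidneys 1, 2 and 3, with overlap. A list of 12 markers of epithelium outside the proximal tubule, among them Umod and Cdh16, summed to 478, 453 and 1060 CPM in tdT+GFP+ kidneys 1, 2 and 3, against 824, 1324 and 1933 CPM in tdT-GFP+ kidneys 1, 2 and 3. All 12 of these had negative log2 fold changes, and their sum, like Fgf1, was highest in the tdT-GFP+ library of kidney 3. So were the endothelial, mural and proximal tubule sums, and the fibroblast sum was lowest there, at 33610 CPM. Only the endothelial and mural sums ranked the libraries in the same order as Fgf1 among the lists of this paragraph. The part of any of these cell types in the Fgf1 values was not tested.

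Fgf2 (ENSMUSG00000037225.13, chromosome 3, bases 37348346 to 37410108, plus strand) is a mitogen of fibroblasts and endothelial cells. Its levels were 80.1, 95.1 and 66.0 CPM in tdT+GFP+ kidneys 1, 2 and 3, against 77.4, 44.4 and 55.4 CPM in tdT-GFP+ kidneys 1, 2 and 3. The tdT+GFP+ value was the higher in each kidney, but the groups overlap, since the tdT-GFP+ library of kidney 1 lay above the tdT+GFP+ library of kidney 3. Its log2 fold change of 0.45 (SE 0.23, 95% interval from -0.10 to 0.99, adjusted p = 0.498 in edgeR) came mostly from kidney 2. The log2 difference between the sorts was 1.10 there, against 0.049 in kidney 1 and 0.251 in kidney 3. Without kidney 2 the log2 fold change was 0.13, and without the tdT-GFP+ library of kidney 1 it was 0.70. Fgf2 shares 640 bases of exon, 9.44% of its exon length, with Nudt6 on the opposite strand. Nudt6 had 64 to 66 estimated counts in tdT+GFP+ cells and 61 to 74 in tdT-GFP+ cells, against 1187 or more for Fgf2 in every library.

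Fgf7 (ENSMUSG00000027208.14, chromosome 2, bases 126034658 to 126091185, plus strand) and Fgf10 (ENSMUSG00000021732.14, chromosome 13, bases 118669791 to 118792115, plus strand) are mesenchymal ligands that act on the epithelial IIIb splice form of Fgfr2. Fgf10 had 5.07, 5.83 and 4.38 CPM in tdT+GFP+ kidneys 1, 2 and 3, against 4.44, 4.60 and 2.89 CPM in tdT-GFP+ kidneys 1, 2 and 3. It was higher in the tdT+GFP+ cells of each kidney while the groups overlapped, with a log2 fold change of 0.36 (SE 0.23, 95% interval from -0.20 to 0.91, adjusted p = 0.560 in edgeR). Leaving out single libraries or kidneys moved this value between 0.17 and 0.46. The value of 0.17 was that without the tdT-GFP+ library of kidney 3, and without the tdT+GFP+ library of kidney 2 it was 0.24.

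Fgf7 had 3.05, 5.38 and 2.44 CPM in tdT+GFP+ kidneys 1, 2 and 3, against 3.19, 2.54 and 3.23 CPM in tdT-GFP+ kidneys 1, 2 and 3. The tdT+GFP+ library of kidney 2 was the highest of the 6, and that of kidney 3 the lowest. For Fgf7 as a whole the log2 fold change came to 0.28 (SE 0.33, 95% interval from -0.50 to 1.06, adjusted p = 0.730 in edgeR), and without the tdT+GFP+ library of kidney 2 it was -0.13. The direction of Fgf7 therefore rested on 1 library.

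Fgf18 (ENSMUSG00000057967.12, chromosome 11, bases 33117430 to 33147400, minus strand), a ligand of the Fgf8 subfamily that is best known from cartilage and bone, was close to the lower end of what could be tested. It had 38, 61 and 30 estimated counts in tdT+GFP+ kidneys 1, 2 and 3, against 54, 26 and 32 in tdT-GFP+ kidneys 1, 2 and 3. These correspond to 1.42 ± 0.471 CPM across tdT+GFP+ libraries, against 1.31 ± 0.417 CPM across tdT-GFP+ libraries (SD, n = 3 each). The groups overlap, and the log2 fold change of 0.11 (SE 0.36, 95% interval from -0.75 to 0.98, adjusted p = 0.910 in edgeR) changed sign when either library of kidney 2 was left out. It was -0.20 without the tdT+GFP+ library and -0.07 without the tdT-GFP+ library of that kidney.

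Fgfr1 (ENSMUSG00000031565.18, chromosome 8, bases 25513654 to 25575718, plus strand) was the most evenly expressed of the 9. It had 244, 265 and 215 CPM in tdT+GFP+ kidneys 1, 2 and 3, against 254, 233 and 222 CPM in tdT-GFP+ kidneys 1, 2 and 3. The groups overlap throughout. Its log2 fold change stood at 0.03 (SE 0.10, adjusted p = 0.915 in edgeR), and its 95% interval of -0.21 to 0.28 was the narrowest among the members. Its sign changed when single libraries or kidneys were left out, and the value stayed within -0.06 to 0.12.

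The 3 other receptors had negative log2 fold changes with overlapping groups. Fgfr2 (ENSMUSG00000030849.18, chromosome 7, bases 130162451 to 133123350, minus strand) is known for an epithelial IIIb and a mesenchymal IIIc form. It had 13.9, 11.6 and 14.5 CPM in tdT+GFP+ kidneys 1, 2 and 3, against 12.5, 18.1 and 16.9 CPM in tdT-GFP+ kidneys 1, 2 and 3. It had a log2 fold change of -0.25 (SE 0.16, 95% interval from -0.64 to 0.14, adjusted p = 0.563 in edgeR), and kidney 1 had the opposite sign, with a log2 difference of 0.145. The annotation holds 17 coding transcripts of Fgfr2 and 9 of Fgfr1, and counts per gene cannot separate the IIIb and IIIc forms of either. Fgfr2 also shares 314 bases of exon, 3.04% of its exon length, with Ctbp2 on the same strand, which averaged 58.9 CPM across tdT+GFP+ libraries and 56.9 CPM across tdT-GFP+ libraries.

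Fgfr3 (ENSMUSG00000054252.18, chromosome 5, bases 33721674 to 33737068, plus strand), best known as a brake on cartilage growth, had 16.2, 15.4 and 23.2 CPM in tdT+GFP+ kidneys 1, 2 and 3. In tdT-GFP+ kidneys 1, 2 and 3 it had 21.7, 31.95 and 22.1 CPM. It was lower in the tdT+GFP+ cells of kidneys 1 and 2 and nearly level in kidney 3, where the log2 difference was 0.071. For Fgfr3 the log2 fold change came to -0.47 (SE 0.22, adjusted p = 0.485 in edgeR), and its 95% interval reached 0.06 at the upper end. A gene on the opposite strand, G630022F23Rik, covers 13.9% of the exon length of Fgfr3. No gene row carried that symbol, so its counts cannot be given.

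Fgfr4 (ENSMUSG00000005320.9, chromosome 13, bases 55152640 to 55168759, plus strand), known from liver as the receptor through which an intestinal FGF limits bile acid synthesis, had 5.95, 6.06 and 7.88 CPM in tdT+GFP+ kidneys 1, 2 and 3. In tdT-GFP+ kidneys 1, 2 and 3 it had 5.10, 12.6 and 10.3 CPM, so that 1 tdT-GFP+ library was below all 3 tdT+GFP+ libraries. Fgfr4 had a log2 fold change of -0.49 (SE 0.33, 95% interval from -1.29 to 0.30, adjusted p = 0.567 in edgeR).

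Kidney 2 stood out across the family. Its tdT+GFP+ library had the highest CPM of the 6 for Fgf2, Fgf7, Fgf10, Fgf18 and Fgfr1 and the lowest for Fgfr2 and Fgfr3. Its tdT-GFP+ library had the highest CPM for Fgfr2, Fgfr3 and Fgfr4 and the lowest for Fgf2 and Fgf18. Without kidney 2 the log2 fold changes of these receptors were -0.06 for Fgfr2, -0.16 for Fgfr3 and -0.17 for Fgfr4, and those of Fgf7, Fgf18 and Fgfr1 were -0.23, -0.37 and -0.06. The log2 fold changes of Fgf1 and Fgf10 were no nearer to 0 without kidney 2, at -1.28 and 0.36. The macrophage marker sum was also highest in the tdT+GFP+ library of kidney 2, at 1518 CPM, and lowest in its tdT-GFP+ library, at 303 CPM. From the fibroblast list, Dcn and Lum were likewise highest in that tdT+GFP+ library, at 869 and 130 CPM. Both were lowest in that tdT-GFP+ library, at 403 and 18.2 CPM. Pdgfra lay the other way in kidney 2, at 1073 CPM in the tdT+GFP+ and 1238 CPM in the tdT-GFP+ library. The summed fibroblast markers were at 43890 and 40100 CPM there, and the proximal tubule sum at 560 and 195 CPM. The summed markers of other epithelium, like Fgfr2, Fgfr3 and Fgfr4, were lower in the tdT+GFP+ than in the tdT-GFP+ library of kidney 2. That sum was lowest of the 6 in the tdT+GFP+ library of kidney 2, at 453 CPM, against 1324 CPM in its tdT-GFP+ library. Unlike these receptors, the sum was highest in the tdT-GFP+ library of kidney 3, at 1933 CPM. From this list, Epcam was lowest in the tdT+GFP+ library of kidney 2, at 10.8 CPM, and highest in its tdT-GFP+ library, at 44.4 CPM. The tdT+GFP+ library of kidney 3 was close to the latter, at 43.0 CPM. Umod and Cdh16 of the same list were instead highest in the tdT-GFP+ library of kidney 3, at 754 and 259.5 CPM. Havcr1 lay the other way in kidney 2, at 95.1 CPM in the tdT+GFP+ and 45.3 CPM in the tdT-GFP+ library. The part of any of these cell types in the FGF values was not tested.

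**Figure D3:**
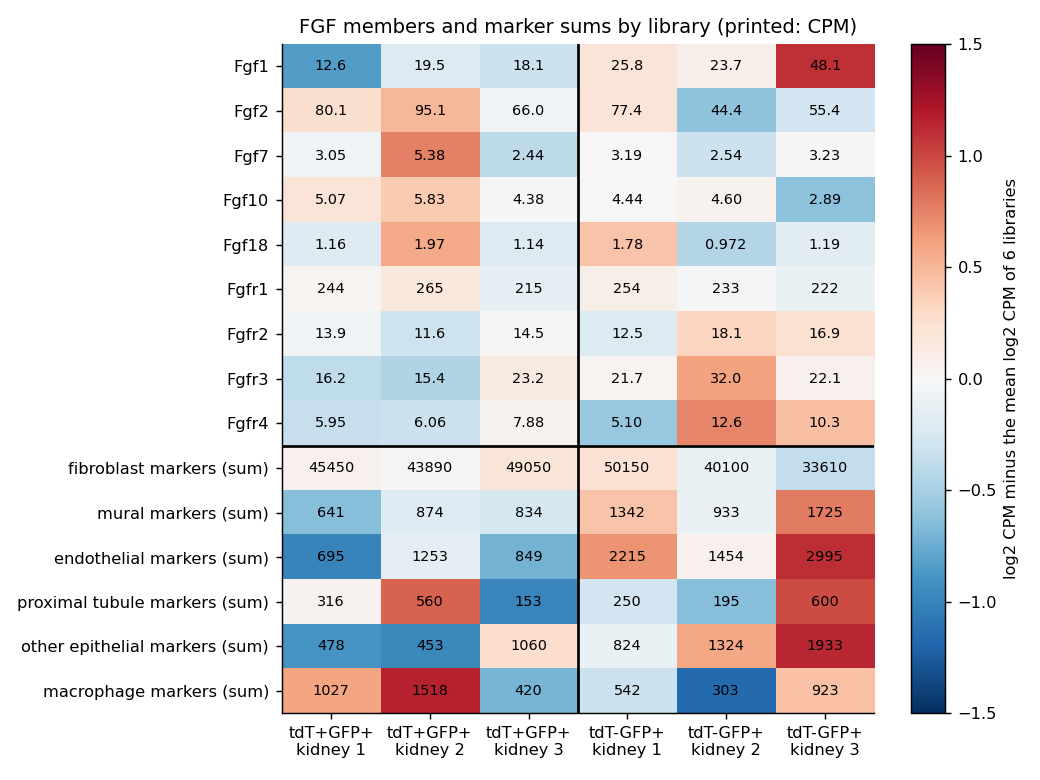
Colour gives log2 CPM of each library minus the mean log2 CPM of all 6, and the printed values are CPM, for the 9 FGF members and for the summed CPM of each cell type marker list, with tdT+GFP+ libraries on the left and tdT-GFP+ libraries on the right. The libraries of kidney 2 differ in opposite directions for Fgf2, Fgfr3 and the macrophage list. Fgf1 and the endothelial, mural, proximal tubule and other epithelium lists have their highest library in tdT-GFP+ kidney 3.

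**Figure D4:**
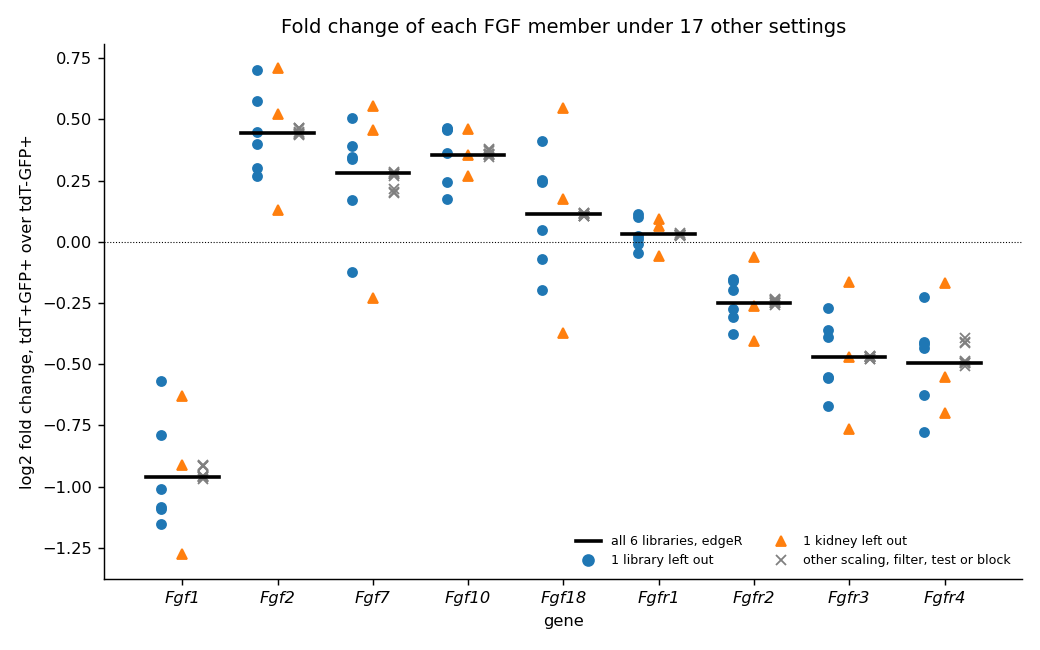
Log2 fold change, tdT+GFP+ over tdT-GFP+, of each of the 9 FGF members with all 6 libraries (bar), with 1 library or 1 kidney left out, and under other scalings, filters, tests and the kidney block. Fgf1 stays at or below -0.57 and Fgf10 at or above 0.17, while Fgf7, Fgf18 and Fgfr1 cross 0.

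For each member, the genes with the most similar pattern were sought as the highest Pearson correlation of log2 CPM over the 6 libraries, among 13111 genes with a mean of at least 1 CPM. The coefficients are given as a description of 6 points, which share kidneys in pairs. Fgf1 was most like Gpld1 (r = 0.996), Pdgfb (r = 0.995) and Dtna (r = 0.993). Pdgfb, which encodes a growth factor made by endothelial cells, had between 22.9 and 30.6 CPM in tdT+GFP+ libraries and more than that in all 3 tdT-GFP+ libraries, with its highest value of 72.6 CPM, as for Fgf1, in tdT-GFP+ kidney 3. Fgf2 was most like Soat1 (r = 0.999), Tnpo1 (r = 0.997) and Pum2 (r = 0.996), and Fgfr1 most like Omd (r = 0.985), the gene of the matrix proteoglycan osteomodulin. The best match of Fgf7 was Tmem104 (r = 0.986) and that of Fgf10 was Zfyve21 (r = 0.992). Among the receptors, Fgfr2 was closest to Crem (r = 0.998), Fgfr3 to Neil3 (r = 0.996) and Fgfr4 to Ech1 (r = 0.993).

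The rest of the pathway was read from lists of 67 genes, the 9 members not included, of which 66 had a row in the table and 52 were tested. None of the 52 passed an adjusted p of 0.05 in edgeR. At an unadjusted p under 0.05, 3 had positive and 5 negative log2 fold changes, 8 of 52 together, against 10.7% of all genes in both directions together. Groups did not overlap for 11 of the 52, 4 higher and 7 lower in tdT+GFP+ cells, against 15.8% of all genes. Their median log2 fold change was -0.003, where that of all genes tested was -0.0004. DESeq2 called 1 of the 52, Flrt3, against 1.93% of all genes.

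Most of the other secreted ligands were too low to test: 10 of 13 failed the filter, and Fgf6 and Fgf20 had 0 counts in all 6 libraries. Fgf9, a ligand of epithelial and mesothelial cells in the embryo, had 7, 18 and 18 estimated counts in tdT+GFP+ kidneys 1, 2 and 3, against 24, 37 and 49 in tdT-GFP+ kidneys 1, 2 and 3. No tdT+GFP+ library reached the lowest tdT-GFP+ library. The log2 fold change of Fgf9 was -1.44 (SE 0.52, adjusted p = 0.444 in edgeR). Fgf21, a hormone made chiefly by liver under metabolic stress, had 25, 25 and 9 estimated counts in tdT+GFP+ kidneys 1, 2 and 3, against 11, 7 and 6 in tdT-GFP+ kidneys 1, 2 and 3. Its groups overlap, and its log2 fold change was 1.17 (SE 0.45, adjusted p = 0.451 in edgeR). Fgf23, the phosphate hormone of bone, was at 1.24 ± 0.339 CPM across tdT+GFP+ libraries, against 1.53 ± 0.624 CPM across tdT-GFP+ libraries (SD, n = 3 each, adjusted p = 0.754 in edgeR).

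Among co-receptors and binding proteins, 6 of 8 were tested and all 6 had negative log2 fold changes, with a median of -0.27, where 7744 of all 15462 genes were negative. For Fgfrl1, Flrt1 and Flrt2 the values were near 0, at -0.005, -0.018 and -0.03, and these 3 and Kl turned positive under at least 1 alternative. Flrt3, a membrane protein that binds FGF receptors, had 3.29, 4.87 and 3.81 CPM in tdT+GFP+ kidneys 1, 2 and 3, against 9.38, 6.20 and 17.6 CPM in tdT-GFP+ kidneys 1, 2 and 3. Its groups do not overlap, and like Fgf1 it was highest in the tdT-GFP+ library of kidney 3. For Flrt3 the log2 fold change stood at -1.47 (SE 0.40), with an adjusted p of 0.409 in edgeR and 0.0232 in DESeq2, and over the alternatives it ranged from -1.93 to -0.94. Kl, the co-receptor Klotho of distal tubules, had 19.8, 28.5 and 18.8 CPM in tdT+GFP+ kidneys 1, 2 and 3, against 21.2, 23.2 and 51.4 CPM in tdT-GFP+ kidneys 1, 2 and 3 (log2 fold change -0.51, SE 0.37, adjusted p = 0.590 in edgeR). Without the tdT-GFP+ library of kidney 3 the log2 fold change of Kl was 0.013. Fgfbp3, a carrier protein that binds FGFs, had 45, 60 and 31 estimated counts in tdT+GFP+ kidneys 1, 2 and 3, against 55, 105 and 64 in tdT-GFP+ kidneys 1, 2 and 3. Its groups overlap, with the tdT+GFP+ CPM the lower in each kidney (log2 fold change -0.85, SE 0.36, adjusted p = 0.468 in edgeR). Flrt3, Kl and the summed markers of other epithelium, given above, were all highest in the tdT-GFP+ library of kidney 3. So were the endothelial, mural and proximal tubule sums, at 2995, 1725 and 600 CPM. The part of any of these cell types in Flrt3 and Kl was not tested. Fgfrl1, a receptor-like protein without a kinase domain, was level at 35.8 ± 4.94 CPM across tdT+GFP+ libraries, against 35.9 ± 3.93 CPM across tdT-GFP+ libraries (SD, n = 3 each). Flrt2 stood at 70.2 ± 5.60 CPM across tdT+GFP+ libraries, against 71.6 ± 10.7 CPM across tdT-GFP+ libraries.

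All 20 genes of heparan sulfate core proteins and enzymes were tested, with 12 positive log2 fold changes, 8 negative ones and a median of 0.08. Groups did not overlap for 4 of them, Gpc4, Hs6st1, Hs6st2 and Ext2, each with every tdT+GFP+ library the higher, against 15.8% of all genes in either direction. Hs6st2, a 6-O-sulfotransferase of heparan sulfate, had 68.6, 64.8 and 64.8 CPM in tdT+GFP+ kidneys 1, 2 and 3, against 59.5, 28.9 and 30.4 CPM in tdT-GFP+ kidneys 1, 2 and 3 (log2 fold change 0.74, SE 0.28, adjusted p = 0.447 in edgeR). The glypican gene Gpc4 was at 162 ± 9.30 CPM across tdT+GFP+ libraries, against 133 ± 15.0 CPM across tdT-GFP+ libraries (SD, n = 3 each, adjusted p = 0.442 in edgeR). Hs6st1, another 6-O-sulfotransferase, was at 127 ± 5.00 CPM across tdT+GFP+ libraries, against 115 ± 5.76 CPM across tdT-GFP+ libraries (adjusted p = 0.488 in edgeR). Hs3st1, a 3-O-sulfotransferase, had 3.63, 5.80 and 4.57 CPM in tdT+GFP+ kidneys 1, 2 and 3, against 8.92, 5.64 and 15.3 CPM in tdT-GFP+ kidneys 1, 2 and 3. Its groups overlap slightly, and its log2 fold change was -1.09 (SE 0.38, adjusted p = 0.441 in edgeR).

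The adaptors downstream of the receptors divided evenly, 4 positive and 4 negative of 8 tested, with a median log2 fold change of -0.03. Gab1, a docking protein bound through Grb2, was at 44.8 ± 0.107 CPM across tdT+GFP+ libraries, against 52.3 ± 4.16 CPM across tdT-GFP+ libraries (SD, n = 3 each), with no overlap (adjusted p = 0.438 in edgeR). Frs2, the direct receptor substrate, was at 71.3 ± 7.18 CPM across tdT+GFP+ libraries, against 60.9 ± 7.70 CPM across tdT-GFP+ libraries (adjusted p = 0.499 in edgeR). Plcg1, the phospholipase recruited by active receptors, was at 116 ± 1.65 CPM across tdT+GFP+ libraries, against 126 ± 6.80 CPM across tdT-GFP+ libraries, also with no overlap. Grb2, which links the docking proteins to Ras activation, was at 73.4 ± 3.97 CPM across tdT+GFP+ libraries, against 77.8 ± 3.31 CPM across tdT-GFP+ libraries (adjusted p = 0.631 in edgeR).

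Feedback inhibitors and target genes of the cascade were similarly divided, 6 positive and 7 negative of 13 tested, with a median log2 fold change of -0.03. Dusp5, a phosphatase of nuclear ERK, had 25.8, 26.3 and 27.4 CPM in tdT+GFP+ kidneys 1, 2 and 3, against 31.1, 32.8 and 42.3 CPM in tdT-GFP+ kidneys 1, 2 and 3. The groups do not overlap, and the log2 fold change was -0.42 (SE 0.13, adjusted p = 0.420 in edgeR). Dusp6, the cytoplasmic ERK phosphatase, was at 72.9 ± 4.28 CPM across tdT+GFP+ libraries, against 81.4 ± 5.50 CPM across tdT-GFP+ libraries (SD, n = 3 each, adjusted p = 0.496 in edgeR). The transcription factor gene Etv5, a target of FGF signals, lay the other way, at 34.6 ± 2.40 CPM across tdT+GFP+ libraries, against 28.9 ± 4.09 CPM across tdT-GFP+ libraries (adjusted p = 0.485 in edgeR), and Spred2, an inhibitor of the Ras and MAP kinase cascade, was at 57.5 ± 5.80 CPM across tdT+GFP+ libraries, against 49.9 ± 4.70 CPM across tdT-GFP+ libraries (adjusted p = 0.499 in edgeR).

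**Figure D5:**
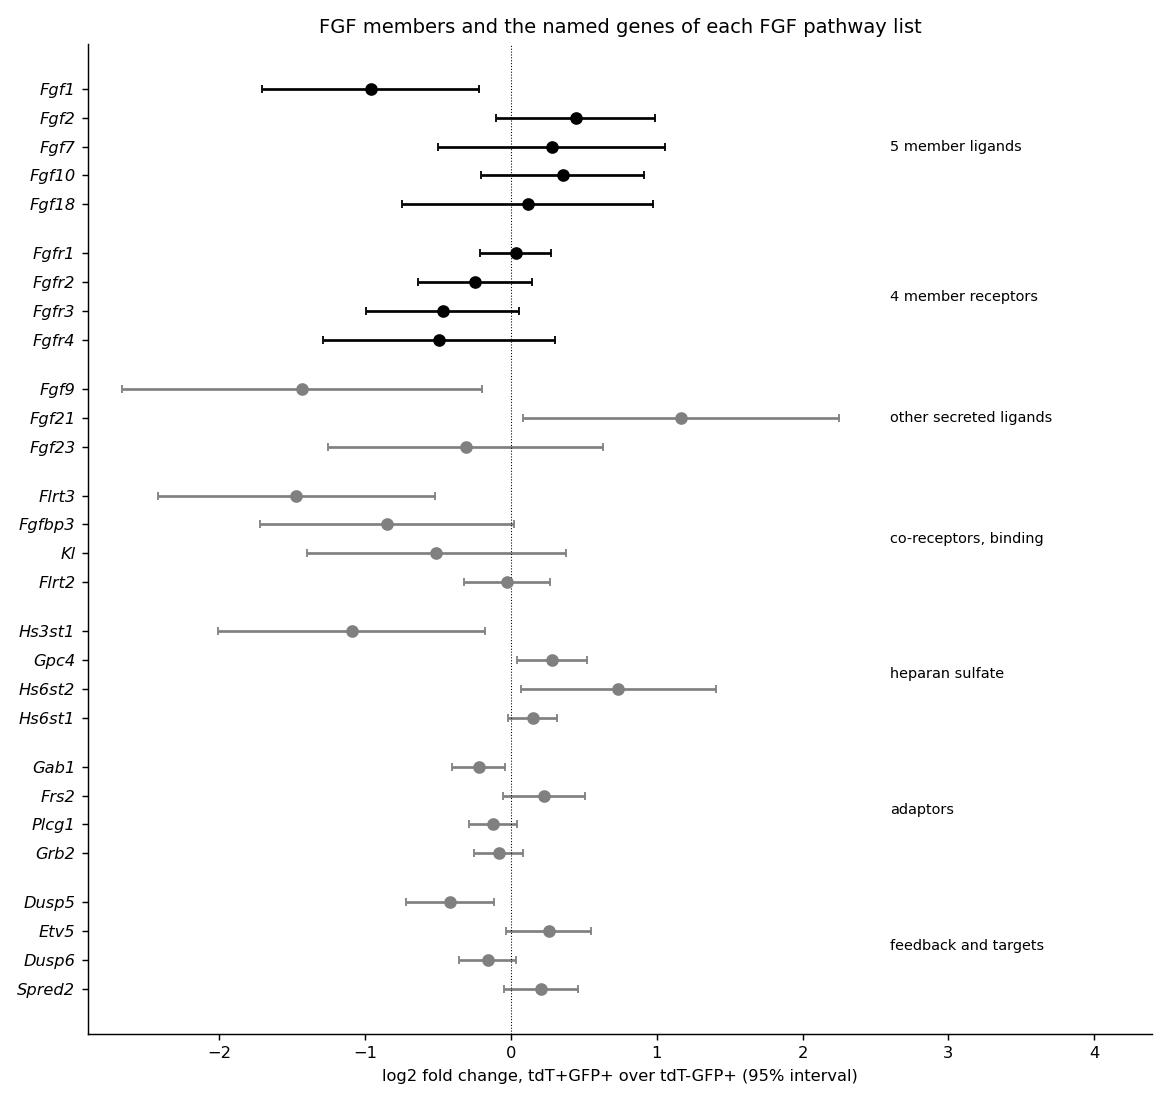
Log2 fold change, tdT+GFP+ over tdT-GFP+, with an approximate 95% interval computed from the edgeR test for the 9 FGF members and the named genes of each FGF pathway list. Fgf1 lies at -0.96 and Flrt3 at -1.47, Fgfr1 has the narrowest interval of the 9 members, and no gene shown passed an adjusted p of 0.05 in edgeR.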

How the data were processed

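Cells from cortex and outer medulla, dissociated on ice, were sorted by FACS, which gated out doublets and debris, and strand-specific libraries were prepared from their poly(A) RNA, per the labels' protocols. Per the file headers the deposited values are RSEM expected counts, estimated for each gene, and all are whole numbers already, so rounding changed 0 values. The submitters' processing notes name RSEM 1.2.28 and STAR 2.6.1 together with bcl2fastq 2.20, R 3.6.3 and DESeq2 1.26.0, and give no role to the 2 builds named, GRCh38 and mm10. The annotation release and whether counting used the strand are not given in the sources used here. For that reason, overlapping genes may share reads. The 92 ERCC rows were left out.

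From these counts, genes that passed filterByExpr (grouped by sort) were scaled with TMM factors and tested in edgeR 4.0.16 (glmQLFit, robust; glmQLFTest) under R 4.3.3 with the sort as the only term, all 15462 genes together, with Benjamini-Hochberg adjustment at 0.05. CPM use TMM-scaled library sizes. TPM, exon lengths and coordinates use GENCODE M21 on GRCm38, where 31748 gene identifiers matched. Log2 differences within a kidney use CPM plus 0.1, and other log2 CPM a prior count of 2. The fit was tested on simulated data. Alternatives were 2 other scalings, 2 other filters, DESeq2 1.42.0, limma-voom (limma 3.58.1), the kidney as a block, and each library or kidney left out.

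The labels assign each numbered kidney to 1 library of either sort, so the numbers pair the libraries. Deviations from the group means correlated by 0.039 for kidney 1, -0.578 for kidney 2 and -0.304 for kidney 3. Between tdT+GFP+ and tdT-GFP+ libraries of different kidneys, these correlations ran from -0.176 to 0.448. The members and all gene lists were chosen with earlier results of these data known. Named are all 9 members, up to 4 genes per pathway list with the smallest unadjusted p, up to 3 genes per member with the most similar pattern, and the highest genes of the marker lists. Ext2, Fgf6, Fgf20, Fgf13, Fgf14, Fgfrl1, Flrt1 and the marker Epcam fall outside this rule and were chosen after their values were seen. The markers Havcr1, Dcn, Lum and Pdgfra were likewise named after their values were seen.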

Additional observations from a re-analysis of the deposited data

How the results depend on the processing

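With the kidney as a replicate block, edgeR called 0 of 15462 genes, 0 of the 9 members and 0 of the 52 pathway genes, as without it, and Fgf1 stood at a log2 fold change of -0.91. DESeq2 called 281 genes, and 278 with the replicate block, of which 0 were members and 1 was a pathway gene without the block. Every other alternative called 0 members and 0 pathway genes in its test. With single libraries or kidneys left out, the log2 fold change ranged from -0.23 to 0.55 for Fgf7, from -0.37 to 0.55 for Fgf18 and from -0.058 to 0.115 for Fgfr1. Among pathway genes it ranged from -0.71 to 0.26 for Fgf23, from -0.298 to 0.723 for Fgf12, from -0.192 to 0.285 for Fgf11, from -0.915 to 0.121 for Kl, from -0.141 to 0.111 for Flrt2 and from -0.21 to 0.11 for Fgfrl1. The cause of these sign changes was not tested. Fgf9 and Fgf21 were not tested under every alternative, since some filters removed them. Fgf1, Fgf2, Fgf10, Fgfr2, Fgfr3 and Fgfr4 kept their sign under all 17 alternatives. The percentage of receptor TPM held by Fgfr1 was 78.3% on the union of exons and 81.4% on the longest transcript. Counts of 26 to 61 stand behind Fgf18, and the 10 untested secreted ligands were lower still.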

Other observations

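The intracellular FGF homologous factors, which bind sodium channels and do not act as secreted ligands, differed in level among themselves. Fgf11 had the highest level of the 4, with 15.4 ± 2.26 TPM across tdT+GFP+ libraries, against 15.2 ± 2.74 TPM across tdT-GFP+ libraries (SD, n = 3 each). In normalised counts it was at 13.1 ± 1.93 CPM across tdT+GFP+ libraries, against 12.6 ± 2.46 CPM across tdT-GFP+ libraries (SD, n = 3 each, adjusted p = 0.917 in edgeR). Fgf12 was at 7.22 ± 3.21 CPM across tdT+GFP+ libraries, against 5.81 ± 1.67 CPM across tdT-GFP+ libraries (adjusted p = 0.742 in edgeR). Fgf13 had 10 to 11 estimated counts in tdT+GFP+ cells and 4 to 8 in tdT-GFP+ cells, and neither it nor Fgf14 passed the filter on low counts.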
